A study of Mus musculus with 12 samples.

Results

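The 6 mRNAs described here, mt-Co1, mt-Co2, mt-Co3, mt-Atp6, mt-Atp8 and mt-Cytb, are those that mouse mitochondrial DNA encodes for cytochrome c oxidase, ATP synthase and cytochrome b. They were taken by symbol, and all 6 were found among the 35498 genes of the deposited tables. Poly(A) RNA was sequenced from 2 liver fractions of each of 6 mice (C57BL/6N males aged 9 to 12 weeks), which had fasted overnight and were in the postprandial state, 3 h after refeeding. The WAM fraction (wrappER-associated mitochondria) contains mitochondria together with the rough endoplasmic reticulum wrapped around them. It was prepared from the lysate of 1 g of liver, cleared in 3 spins at low speed. The lysate of the same mouse is the fraction it is set against, so each mouse gave 1 WAM and 1 lysate library. None of the mice carried an engineered allele or was given an agent, per the labels. The fractions hold all liver cell types, and in such bulk samples a higher level of an RNA and a lower level of the remaining RNA cannot be told apart.

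Mammalian mitochondrial DNA is transcribed into long RNAs that cover many genes, and the mRNAs are released by cutting at the transfer RNAs that lie between them. Most of these mRNAs are then polyadenylated, which in several cases also completes the stop codon. mt-Co1, mt-Co2 and mt-Co3 encode the catalytic core of complex IV (cytochrome c oxidase), which passes electrons to oxygen. mt-Cytb encodes the only complex III subunit made inside mitochondria, and mt-Atp6 and mt-Atp8 encode membrane subunits of complex V (ATP synthase). All are assembled with partners whose mRNAs are made in the nucleus and translated outside mitochondria.

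On the mitochondrial chromosome of GENCODE M21 (build GRCm38, which need not be the authors') all 6 lie on the plus strand as single-exon coding genes without annotated UTRs. mt-Co1 (ENSMUSG00000064351) runs from chrM:5328-6872, mt-Co2 (ENSMUSG00000064354) from chrM:7013-7696, mt-Atp8 (ENSMUSG00000064356) from chrM:7766-7969, mt-Atp6 (ENSMUSG00000064357) from chrM:7927-8607, mt-Co3 (ENSMUSG00000064358) from chrM:8607-9390 and mt-Cytb (ENSMUSG00000064370) from chrM:14145-15288. The frames of mt-Atp8 and mt-Atp6 share 43 bases, and mt-Atp6 shares its last base with mt-Co3, so these 3 genes have no transfer RNA between them. The joins are printed 5′ to 3′ on the plus strand from the GENCODE sequences because reads over them belong to both genes. Capitals mark the shared bases.
mt-Atp8 and mt-Atp6, shared bases chrM:7927-7969: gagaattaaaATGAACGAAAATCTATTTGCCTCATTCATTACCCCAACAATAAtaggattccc
mt-Atp6 and mt-Co3, shared base chrM:8607-8607: ataatacataAtgacccacca

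The ends of the frames differ, and the last 30 bases of 4 of them are printed here with the stop codon, or the part of it that is encoded, in capitals. mt-Co1, mt-Co2, mt-Atp6 and mt-Atp8 end in a full TAA, while mt-Co3 and mt-Cytb end in a single T.
mt-Co2: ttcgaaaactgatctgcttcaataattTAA
mt-Atp6: gtaagcctatatctacatgataatacaTAA
mt-Co3: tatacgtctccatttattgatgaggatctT
mt-Cytb: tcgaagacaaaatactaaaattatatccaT

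Of the 6, 4 have a near-identical copy in the nuclear genome, defined here as an annotated gene with at least 90% of its 31-base words in the mitochondrial gene. The copies are unprocessed pseudogenes on the minus strand of chromosome 1. Gm28437 (chr1:24613189-24613971) matches the first 783 bases of mt-Co3 with no mismatch, and Gm10925 (chr1:24613974-24614651) matches the first 678 bases of mt-Atp6 with none. Gm28661 (chr1:24614885-24615565) matches the first 681 bases of mt-Co2 with none. Gm29216 (chr1:24615706-24616197) matches the 3′ part of mt-Co1, with 6 mismatches near its own start and then an identical run of 479 bases. Over the identical stretches a read carries no base that would assign it to the mitochondrial gene or to the copy. mt-Atp8 and mt-Cytb have no annotated gene that meets this definition. The stretch of chromosome 1 between Gm10925 and Gm28661, the copies of its neighbours mt-Atp6 and mt-Co2, was not compared with mt-Atp8. Below the threshold lie 2 pseudogenes on chromosome 2, Gm13340, with 45.2% of its words in mt-Co1, and Gm13341, with 48.0% in mt-Co2. Their counts are not among the copies added below. The place where Gm29216 becomes identical to mt-Co1 is printed here, with the last differing base, A1066T, in capitals (position counted from 1 at the first base of mt-Co1, mitochondrial base first).
mt-Co1: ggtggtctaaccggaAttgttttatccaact
Gm29216: ggattggcaggaTttgttttatccaact

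The deposited counts gave these copies very unequal parts. Gm28661 held 84.8% ± 1.4 of the estimated count summed over it and mt-Co2 in WAM and 83.7% ± 3.6 in lysates (SD, n = 6 each). Gm28437 held 33.8% ± 4.6 of its sum with mt-Co3 in WAM and 29.1% ± 11.2 in lysates, where it ranged from 20.5% to 46.7%. Gm29216 held 8.86% ± 0.36 of its sum with mt-Co1 in WAM and 10.5% ± 0.95 in lysates. Gm10925, which also matches its member without a mismatch, held only 0.131% ± 0.103 of its sum with mt-Atp6 in WAM and 0.231% ± 0.252 in lysates. Most of the estimated count for the mt-Co2 sequence was thus booked on chromosome 1, and almost none for mt-Atp6. Estimated counts of mt-Co1, mt-Co2, mt-Co3 and mt-Atp6 were not whole numbers in 12 of 12 libraries, those of mt-Atp8 in 5 of 12 and those of mt-Cytb in 0 of 12 (tolerance 0.001). Levels, shares, fold changes and ratios of the members are therefore given as deposited and with the copy's count added to its member, a choice made after these values were seen. Adding leaves the origin of the reads unresolved, since RNA made from the copies themselves, if any, would be added too.

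**Figure D1:**
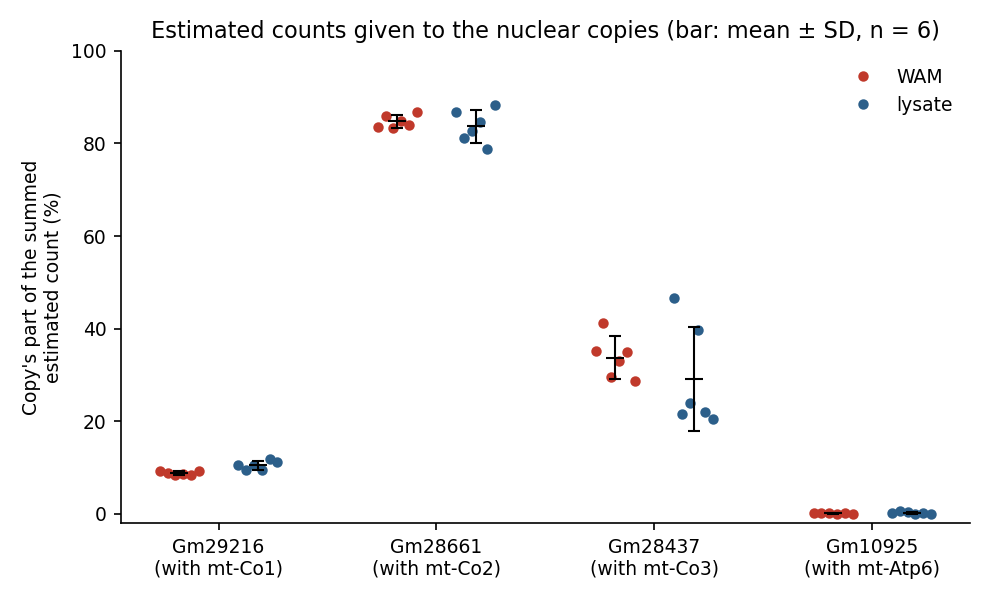
Part of the estimated count, in percent of the sum of copy and member, that the deposited table gives to each nuclear copy in 6 WAM and 6 lysate libraries (points; bars are mean ± SD). The part is 84.8% in WAM for the copy of mt-Co2, 33.8% for that of mt-Co3, 8.86% for that of mt-Co1 and 0.131% for that of mt-Atp6.

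All 12 libraries were deep for these genes: total estimated counts were 8344196 to 9712455 in WAM and 7400274 to 12024128 in lysates, and the lowest count of any of the 6 in any library was 2187, for mt-Atp8. Hepatocyte markers (5 of 5 in the table) summed to 28670 to 62185 TPM in WAM and 36836 to 64419 TPM in lysates. Median sums of most other lists were lower in WAM, as was the median of all genes (log2 fold change -1.22 in limma on log2(TPM + 1)). They were 153 TPM in WAM and 444 TPM in lysates for 3 erythroid markers, and 1.21 and 4.57 TPM for 4 cholangiocyte markers. For 4 neutrophil markers they were 2.02 TPM in WAM and 5.32 TPM in lysates, and for 4 lymphocyte markers 0.71 and 1.74 TPM. For 5 sinusoidal endothelial markers they were 39.5 TPM in WAM and 52.3 TPM in lysates, and for 5 stellate markers 70.9 and 82.5 TPM. The 6 macrophage markers had medians of 144 TPM in WAM and 129 TPM in lysates. The part of these markers in the results was not tested. Mouse 5 stood apart in 2 of these lists. Its neutrophil markers summed to 12.4 TPM in WAM, against at most 2.66 TPM in the other WAM libraries, and to 60.9 TPM in lysate, against at most 10.4 TPM. Its macrophage markers summed to 414 TPM in WAM, next to 180 TPM at most, and to 421 TPM in lysate, next to 161 TPM at most. None of the markers of these 2 lists was at 0 in all libraries of a fraction.

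All 6 mRNAs were higher in WAM than in lysate in TPM, the deposited level per transcript length, in 6 of 6 mice. Of all genes tested on this scale (limma on log2(TPM + 1), adjusted p under 0.05), 0.50% were called higher in WAM and 85.6% lower. mt-Atp8 had from 30816 to 50488 TPM (median 40467) in WAM, against 7217 to 9740 TPM (median 8806) in lysates. mt-Co1 had from 32722 to 46193 TPM (median 38464) in WAM, against 5930 to 8980 TPM (median 7081) in lysates. mt-Atp6 had from 27801 to 44623 TPM (median 36984) in WAM, against 6426 to 9314 TPM (median 7956) in lysates. These 3 formed the upper group in both fractions. mt-Co3 had from 15083 to 28478 TPM (median 24393) in WAM and 2966 to 5716 TPM (median 4913) in lysates. mt-Cytb had from 16368 to 28380 TPM (median 22662) in WAM and 3698 to 5348 TPM (median 4799) in lysates. mt-Co2 was far below the rest, with 3818 to 6825 TPM (median 5528) in WAM and 764 to 1479 TPM (median 1161) in lysates.

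The low level of mt-Co2 was not seen once its copy was added. With the copies, mt-Co2 averaged 35326 ± 6862 TPM in WAM and 6964 ± 766 TPM in lysates, and mt-Co3 averaged 34390 ± 6850 TPM in WAM and 6523 ± 611 TPM in lysates (SD, n = 6 each). mt-Co1 came to 42924 ± 7069 TPM in WAM and 7898 ± 1161 TPM in lysates. mt-Cytb, which has no annotated copy and stayed at 22815 ± 5085 TPM in WAM and 4673 ± 593 TPM in lysates, was then the lowest of the 6. The spread between lysates was narrower too: the SD of log2 TPM was 0.16 for mt-Co2 with its copy and 0.37 without, and 0.14 for mt-Co3 with its copy and 0.34 without.

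**Figure D2:**
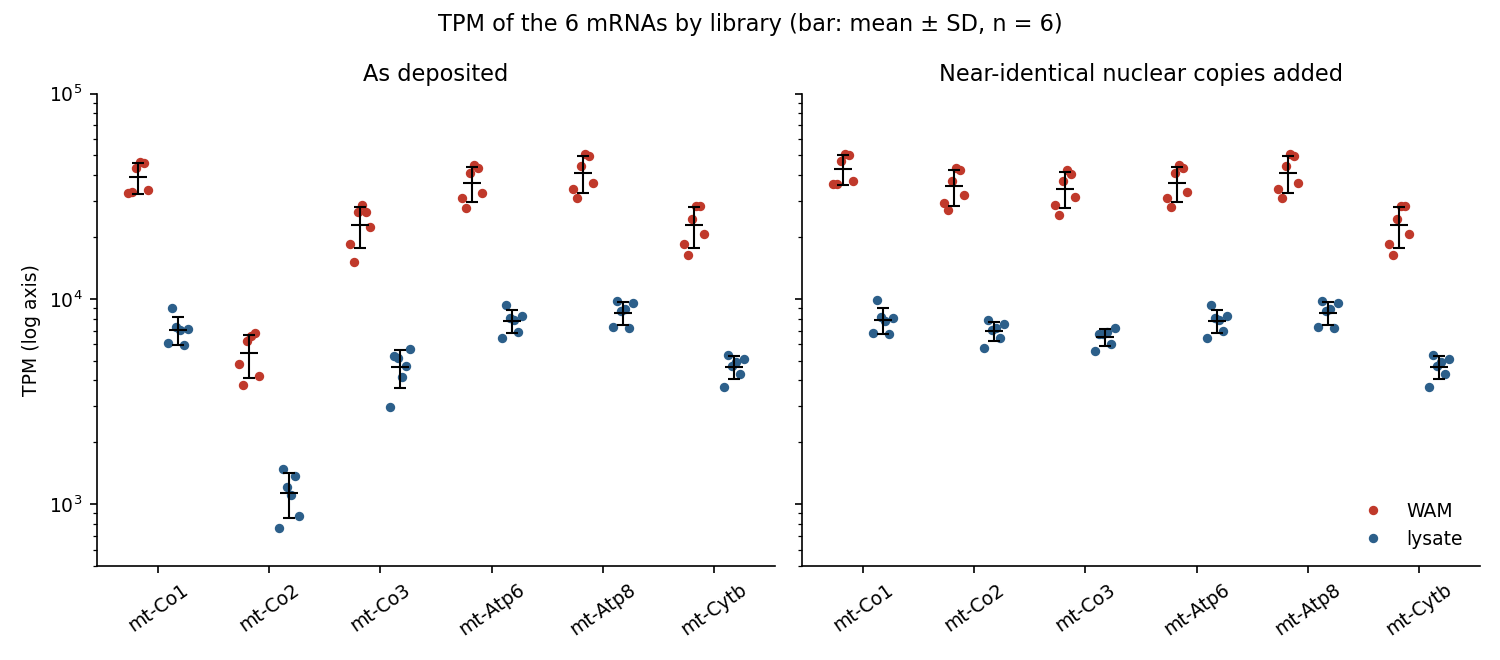
TPM (log axis) of the 6 mRNAs in each WAM and lysate library, as deposited (left panel) and with the count of the near-identical nuclear copy added (right panel); bars are mean ± SD over 6 libraries. As deposited, mt-Co2 lies at 5413 TPM in WAM and 1134 TPM in lysates, below the others, and with its copy at 35326 and 6964 TPM it lies among them.

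The 6 mRNAs together made up 16.8% ± 3.3 of all TPM in WAM (12.7% to 20.5%) and 3.39% ± 0.46 in lysates (2.72% to 4.01%). With the copies the parts were 21.3% ± 4.1 in WAM and 4.24% ± 0.50 in lysates. In estimated counts, which do not correct for length, the 6 made up 11.2% ± 2.6 in WAM and 1.61% ± 0.25 in lysates, and with the copies 13.96% ± 3.23 in WAM and 2.00% ± 0.27 in lysates.

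Across all 11181 genes tested with edgeR's quasi-likelihood test on TMM-scaled counts, 29.5% were called higher in WAM (threshold 0.05 on the p adjusted by Benjamini-Hochberg), and all 6 members were among them. Another 28.8% were called lower, so 58.2% were called in either direction. The log2 fold change was 4.03 for mt-Co1 (SE 0.26, edgeR adjusted p = 4.74e-08). It was 3.88 for mt-Co3 (SE 0.26), 3.87 for mt-Cytb (SE 0.25), 3.85 for mt-Atp8 (SE 0.22), 3.84 for mt-Co2 (SE 0.28) and 3.82 for mt-Atp6 (SE 0.24), with edgeR adjusted p from 3.99e-08 to 9.83e-08. The median of the 6 was 3.86, beside a median of -0.08 over all genes. With the copies added the median was 3.90, and the log2 fold change was 4.01 for mt-Co1, 3.92 for mt-Co2, 3.98 for mt-Co3 and 3.81 for mt-Atp6. At least 8-fold higher were 0.206% of the genes tested, 23 in number, of which 13 were the mitochondrially encoded mRNAs and 4 their near-identical copies. Gm13340, which shares words with mt-Co1, was also among the 23 (log2 fold change 3.73). The rest were Olfr1062, which had the highest of the 23 at 4.39, Gm20594 (3.65), Nudt14 (3.62), Cep295 (3.54) and Ugt1a10 (3.51). The size of the difference depends on the scale: the median of the 6 was 2.72 on library totals, where the median of all genes moved to -1.19, and 2.26 in limma on log2(TPM + 1), where it moved to -1.22. Relative to the median of all genes the 6 lay 3.94 higher with TMM, 3.91 with library totals and 3.48 with limma. Without mouse 5 the TMM median was 3.72, and without mouse 2 it was 4.07.

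The ratio of WAM to lysate TPM differed more between mice than between the 6 genes within a mouse. Mouse 2 had the lowest ratio for each of the 6 mRNAs, between 2.58 for mt-Co2 and 3.69 for mt-Co1. Mouse 5 had the highest for mt-Co1 (7.73), mt-Atp8 (6.90), mt-Cytb (6.57) and mt-Atp6 (6.25). mt-Co2 and mt-Co3 did not follow: mt-Co2 was highest in mouse 1, at 6.33, against 5.00 in mouse 5, and mt-Co3 was highest in mouse 4, at 6.87, against 5.64 in mouse 5. With the copies added, mouse 5 was highest and mouse 2 lowest for all 6. Within a mouse the highest of the 6 ratios was 1.16 to 1.55 times the lowest as deposited and 1.12 to 1.28 times with the copies.

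The authors' deposited table gives a mitochondrial content coefficient of 5.02, 2.84, 5.07, 5.72, 6.40 and 4.16 for mice 1 to 6. Each equals, to within 1e-06, the mean WAM over lysate TPM ratio of the 13 mitochondrially encoded mRNAs as deposited, so the 6 members are part of the yardstick. mt-Co1 lay above its mouse's coefficient in every mouse, at 107% to 130% of it. mt-Atp6, at 95.8% to 105% of the coefficient, and mt-Cytb, at 98.3% to 108%, stayed close to it. mt-Co2 ranged from 78.1% of the coefficient in mouse 5 to 126% in mouse 1, and mt-Co3 from 88.2% in mouse 5 to 125% in mouse 1. The authors' deposited table gives a mean enrichment of 117% for mt-Co1 (SEM 3.15) and of 99.1% to 105% for the other 5.

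**Figure D3:**
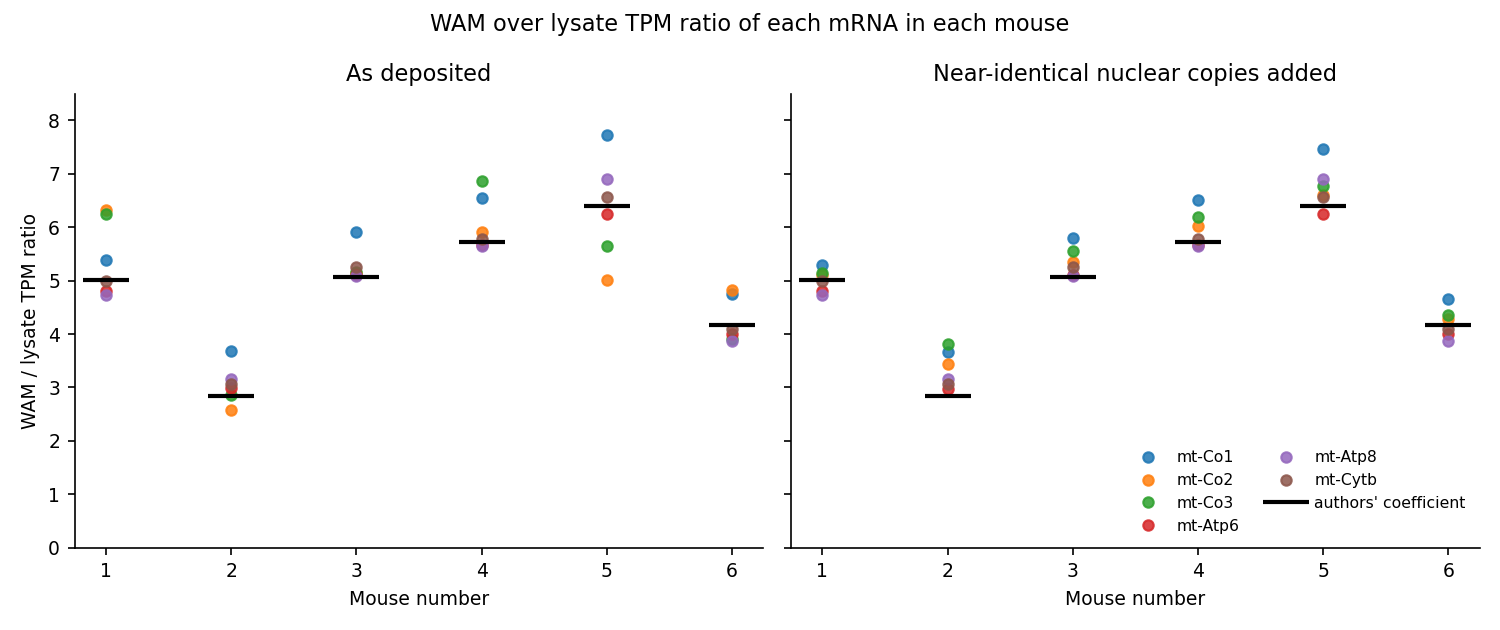
WAM over lysate TPM ratio of each of the 6 mRNAs in each mouse, as deposited (left panel) and with the nuclear copies added (right panel); the black dash is the authors' coefficient of that mouse, the same in both panels. Mouse 2 lies lowest and, with the copies, mouse 5 highest for all 6 mRNAs, and mt-Co1 lies above the dash in every mouse.

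The order of levels was tested within each fraction by comparing neighbours in the same library (two-sided exact sign-flip permutation test over 6 libraries, smallest p 0.03125, Benjamini-Hochberg over the 10 neighbour comparisons). In WAM the order was mt-Atp8, mt-Co1, mt-Atp6, mt-Co3, mt-Cytb and mt-Co2. There mt-Atp8 and mt-Co1 did not differ beyond their spread (geometric means 40363 and 38679 TPM, adjusted p = 0.156 by the exact test), nor did mt-Co3 and mt-Cytb (ratio 1.00, adjusted p = 0.906 by the exact test). The other 3 steps passed at an adjusted p of 0.0446 by the exact test, with the same direction in 6 of 6 libraries. In lysates the order was mt-Atp8, mt-Atp6, mt-Co1, mt-Cytb, mt-Co3 and mt-Co2, and the step from mt-Cytb to mt-Co3 was the one that did not pass (ratio 1.02, adjusted p = 0.833 by the exact test). In TPM as deposited, mt-Co1 and mt-Atp6 thus stood in opposite order in the fractions, which was not so per kilobase or with the copies added.

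The order rests on the scale and on the copies. In WAM with the copies added it was mt-Co1, mt-Atp8, mt-Atp6, mt-Co2, mt-Co3 and mt-Cytb, with the step between mt-Co2 and mt-Co3 not passing (ratio 1.03, adjusted p = 0.0694 by the exact test). In lysates with the copies it was mt-Atp8, mt-Co1, mt-Atp6, mt-Co2, mt-Co3 and mt-Cytb, and neither the step from mt-Atp8 to mt-Co1 (ratio 1.09) nor that from mt-Co1 to mt-Atp6 (ratio 1.01) passed. Per kilobase of annotated length, without the authors' length correction, mt-Atp8 fell behind mt-Co3 to the fifth place in both fractions. On that scale mt-Co1 lay above mt-Atp6 in both, at a ratio of 1.29 in WAM and 1.10 in lysates. Both steps had the same direction in 6 of 6 libraries and an adjusted p of 0.0347 by the exact test. mt-Atp8 is 204 bases long, so its level depends most on how length is treated.

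The balance among the 6 mRNAs was compared between fractions as the log2 ratio of TPM for each of the 15 pairs, which does not depend on scaling between libraries (exact permutation of the fraction labels over the 12 libraries, two-sided, smallest p 0.00216, Benjamini-Hochberg over the 15). As deposited, 1 pair passed. mt-Co1 stood at 1.07 times mt-Atp6 in WAM and at 0.905 times in lysates, a difference of 0.24 on the log2 scale, higher in 6 of 6 mice (exact permutation p = 0.00216, adjusted p = 0.0325). With the mouse as a block (exact sign-flip) no pair passed, since the smallest p of 0.03125 becomes an adjusted 0.117 for this pair. Without a mouse the difference was 0.23 to 0.26, at the smallest p that 10 libraries allow (0.00794 by the exact permutation test) each time. A pair alone at that p has an adjusted 0.119 over the 15, so the design of 10 libraries could not call it. mt-Co1 was also higher in WAM relative to mt-Atp8 (0.22, exact permutation adjusted p = 0.0649) and mt-Cytb (0.20, exact permutation adjusted p = 0.119), in 6 of 6 mice each, without passing. mt-Atp6 was lower in WAM relative to mt-Cytb in 6 of 6 mice, by -0.04 with an SD of 0.017 over mice, and did not pass either (exact permutation adjusted p = 0.628, exact sign-flip adjusted p = 0.117). mt-Atp6 and mt-Atp8, whose frames overlap, kept close: their ratio was 0.896 in WAM and 0.911 in lysates (adjusted p = 0.923 by the exact permutation test). Whether both were measured on the same molecules was not tested.

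With the copies added, 7 of the 15 pairs passed, and each of them set an oxidase mRNA against mt-Atp6, mt-Atp8 or mt-Cytb. mt-Co3 stood at 0.933 times mt-Atp6 in WAM and at 0.837 times in lysates, a difference of 0.16 on the log2 scale (exact permutation adjusted p = 0.0162, 6 of 6 mice). mt-Co2 stood at 0.960 times mt-Atp6 in WAM and at 0.893 times in lysates, a difference of 0.10 (exact permutation adjusted p = 0.0244, 6 of 6 mice). mt-Co1 stood at 1.17 times mt-Atp6 in WAM and at 1.01 times in lysates, a difference of 0.22 (exact permutation adjusted p = 0.0162, 6 of 6 mice). The remaining 4 that passed were mt-Co1 against mt-Atp8, mt-Co2 against mt-Atp8, mt-Co3 against mt-Atp8 and mt-Co3 against mt-Cytb, with differences of 0.08 to 0.19. With the mouse as a block 10 pairs passed, all at an adjusted p of 0.0469 by the exact sign-flip test, and these no longer held mt-Co2 or mt-Co3 against mt-Atp8. The 5 pairs that passed with the block but not without it were mt-Co1 against mt-Co2 (0.11), mt-Co1 against mt-Cytb (0.17), mt-Co2 against mt-Co3 (-0.05), mt-Co2 against mt-Cytb (0.06) and mt-Atp6 against mt-Cytb (-0.04), so pairs within the oxidase were among them. Leaving out a mouse gave 0 to 6 pairs with the copies, 0 without mouse 4 and 0 without mouse 6, while mt-Co1 against mt-Atp6 kept a difference of 0.20 to 0.23. The differences are small beside the higher level of all 6 in WAM: with the copies none exceeds 0.22 on the log2 scale.

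**Figure D4:**
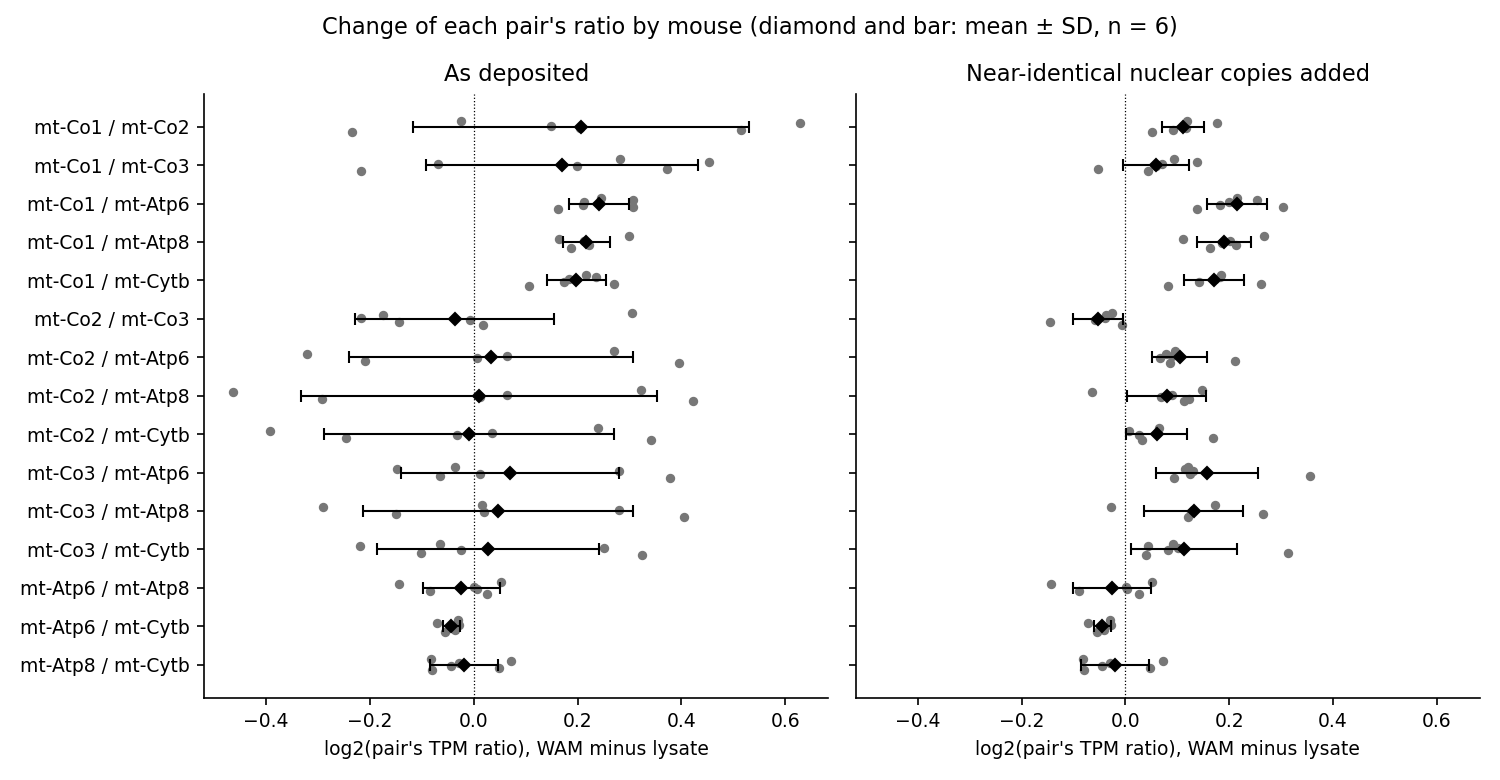
Difference between WAM and lysate in the log2 TPM ratio of each of the 15 pairs, by mouse (points) with mean ± SD over 6 mice (diamonds and bars), as deposited (left panel) and with the nuclear copies added (right panel). Pairs with mt-Co2 or mt-Co3 scatter widely as deposited, while with the copies mt-Co1, mt-Co2 and mt-Co3 against mt-Atp6 lie above 0 in 6 of 6 mice, at 0.22, 0.10 and 0.16.

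Set against the geometric mean of the 6, mt-Co1 stood at 1.68 times it in WAM and at 1.49 times in lysates, and mt-Atp6 at 1.57 times in WAM and at 1.65 times in lysates, but neither passed as deposited (exact permutation p = 0.0152 and 0.0281, adjusted p = 0.0844 for both over the 6). No member passed at an adjusted p under 0.05, and 2 had an unadjusted exact permutation p under 0.05. With the copies, 4 of 6 passed (exact permutation adjusted p from 0.0130 to 0.0357). mt-Co1 and mt-Co3 were higher in WAM, by 0.12 and 0.07 on the log2 scale, and mt-Atp6 and mt-Atp8 were lower, by -0.09 and -0.07. Because the mean is taken over the same 6, a rise of some members forces a fall of others. These calls are therefore not independent of each other. With the copies, mt-Co3 and mt-Atp6 also passed without any 1 of the mice, and with the mouse as a block mt-Cytb passed in place of mt-Atp8 (exact sign-flip adjusted p = 0.0469).

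The 6 mRNAs varied together across livers. In WAM the SD of log2 TPM over the 6 libraries was 0.24 for mt-Co1 to 0.36 for mt-Co3, and the SD of all 15 pair ratios lay below the smallest of these, from 0.032 for mt-Atp6 to mt-Atp8 up to 0.19 for mt-Co1 to mt-Co3. In lysates as deposited, 6 of 15 pair ratios lay below the smallest level SD of 0.19, and with the copies 14 of 15 lay below the smallest of 0.14. The widest lysate pair ratio as deposited, mt-Co2 to mt-Atp8, had an SD of 0.37.

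The 7 other mRNAs of the mitochondrial chromosome, which encode subunits of complex I (NADH dehydrogenase), were all called higher in WAM, with a median log2 fold change of 3.78, 7 of 7, beside 29.5% of all genes. mt-Nd1 averaged 14161 ± 4124 TPM in WAM and 2925 ± 345 TPM in lysates (SD, n = 6 each). The geometric mean of the 6 members stood at 1.84 times that of the 7 in WAM and at 1.70 times in lysates, a difference of 0.12 on the log2 scale, higher in 5 of 6 mice, which did not pass (two-sided exact permutation p = 0.0736). The same difference passed with sums of TPM (0.14, exact permutation p = 0.0260) and with the copies added (0.13, exact permutation p = 0.0368, and 0.03125 by sign-flip within mice, the smallest possible), so the call depends on these choices.

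Nuclear genes of the same complexes had far smaller fold changes, and their direction depends on the scaling. Their counts are to be read against all genes tested, of which 29.5% were called higher and 28.8% lower with TMM, 4.5% higher and 77.4% lower on library totals, and 33.5% higher and 36.2% lower with the mouse as a block. In the edgeR fit with TMM, 12 of 12 tested nuclear complex IV genes were called higher, with a median of 0.77; on library totals 1 was called higher and 6 of 12 lower, beside 77.4% lower of all genes, with a median of -0.33. Ndufa4, an oxidase subunit once assigned to complex I, averaged 554 ± 112 TPM in WAM and 830 ± 55 TPM in lysates (log2 fold change 0.86 with TMM, edgeR adjusted p = 1.58e-06, and -0.25 on library totals). Cox6c averaged 487 ± 93 TPM in WAM and 698 ± 69 TPM in lysates (1.01 with TMM, -0.10 on library totals). Cox6a1 had the largest called change of the list, 1.45 with TMM and 0.34 on library totals, at 524 ± 78 TPM in WAM and 558 ± 43 TPM in lysates.

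For complex III, 6 of 9 nuclear genes were called higher and 0 lower with TMM (median 0.59), and 0 higher and 8 lower on library totals (median -0.51), where 77.4% of all genes were lower. Uqcrq, a small subunit, averaged 480 ± 94 TPM in WAM and 853 ± 57 TPM in lysates, and Uqcrh, the hinge subunit, 335 ± 61 TPM in WAM and 570 ± 42 TPM in lysates. Uqcr11 had the largest called change, 1.01 with TMM and -0.10 on library totals. For complex V, 10 of 18 were called higher and 2 lower with TMM (median 0.30), and 0 higher and 18 lower on library totals (median -0.80), beside the same 77.4%. Atp5b, the catalytic beta subunit, averaged 571 ± 121 TPM in WAM and 1531 ± 64 TPM in lysates and was lower on both scales (-0.35 with TMM, edgeR adjusted p = 0.0171, and -1.44 on library totals). Atp5g3, a subunit c gene, had a log2 fold change of 0.11 with TMM that did not pass (edgeR adjusted p = 0.439), and Atp5k, subunit e, had the largest called change at 0.77.

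Among assembly factors of complexes III, IV and V, 18 of 30 were called higher and 2 lower with TMM (median 0.42), and 0 higher and 27 lower on library totals (median -0.70), again beside 77.4% of all genes. Cox17, a copper chaperone of the oxidase, had 59.3 ± 17.9 TPM in WAM and 104.5 ± 9.7 TPM in lysates (0.66 with TMM, -0.44 on library totals). Sco2, which delivers copper to the Co2 subunit, had a log2 fold change of 0.24 with TMM (edgeR adjusted p = 0.0989, and 0.00671 once mice were blocked), and on library totals it was called lower (-0.87, edgeR adjusted p = 2.19e-05). Uqcc3, a complex III assembly factor, had the largest called change at 1.36. Of 36 factors of mitochondrial transcription, RNA processing and translation, 6 were called higher and 8 lower with TMM (median -0.04, near the -0.08 of all genes), 6 and 12 with the mouse as a block, and 0 and 34 on library totals. The shares over all genes were 29.5% and 28.8%, 33.5% and 36.2%, and 4.5% and 77.4% on these 3 scales. The most abundant of them, Hsd17b10, a subunit of mitochondrial RNase P, and Rexo2, an oligoribonuclease, had TMM log2 fold changes of 0.61 (edgeR adjusted p = 0.0386) and -0.06 (edgeR adjusted p = 0.616). Tfam, the factor that packages mitochondrial DNA and starts its transcription, had the largest called change of the list at 0.90 with TMM (-0.22 on library totals). Relative to the median of all genes on the same scale the list medians were 0.85 for complex IV, 0.67 for complex III, 0.38 for complex V and 0.50 for the assembly factors with TMM, and 0.86, 0.68, 0.38 and 0.49 on library totals. In limma on log2(TPM + 1) they were 0.56, 0.33, 0.05 and 0.23.

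Lrpprc and Slirp form the complex that binds and stabilises mitochondrial mRNAs, and Taco1 activates translation of mt-Co1. Lrpprc averaged 7.57 ± 2.09 TPM in WAM and 32.6 ± 4.3 TPM in lysates and was called lower (log2 fold change -0.58 with TMM, edgeR adjusted p = 0.000567, and -1.68 on library totals). Slirp, with 31.3 ± 7.3 TPM in WAM and 54.5 ± 8.0 TPM in lysates, was called higher with TMM (0.70) and lower on library totals (-0.40). Taco1 averaged 6.55 ± 1.91 TPM in WAM and 23.5 ± 3.0 TPM in lysates and was called lower (-0.33 with TMM, edgeR adjusted p = 0.0147). No nuclear gene of these 5 lists reached the log2 fold change of the lowest member, 3.82, in the TMM fit.

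**Figure D5:**
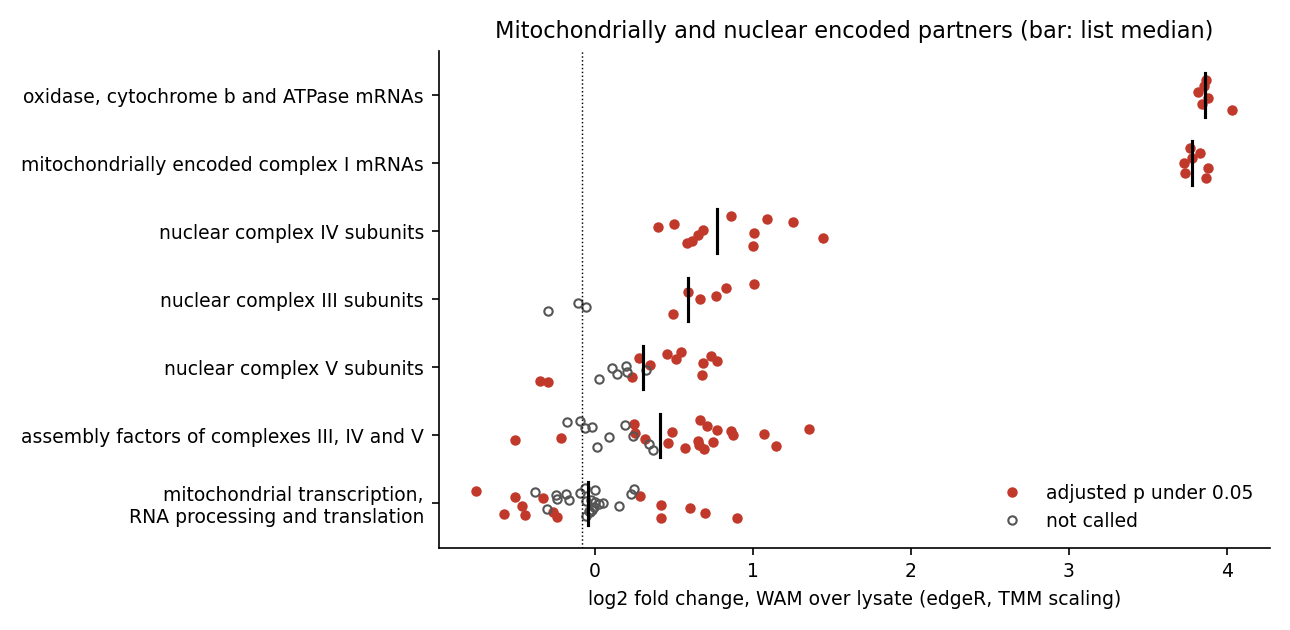
Log2 fold change, WAM over lysate, in the edgeR fit with TMM for each tested gene of the 6 mRNAs, the 7 complex I mRNAs and 5 lists of nuclear genes; filled points passed an adjusted p of 0.05, open points did not, bars are list medians and the dotted line is the median of all genes (-0.08). The mitochondrially encoded mRNAs lie near 4, with medians of 3.86 and 3.78, and the nuclear lists have medians between -0.04 and 0.77.

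Outside the mitochondrial genome, the genes with the profile most like the mean of the 6 were sought among 6874 genes with a mean of at least 10 CPM, by the root mean square difference of centred log2 CPM over the 12 libraries. The members themselves lay at 0.053 to 0.18, but each is part of the mean it was set against. Reads of a near-identical copy cannot be told from those of its mitochondrial gene over the identical stretches. The nearest 3 were nuclear copies, Gm28661 at 0.097, Gm29216 at 0.12 and Gm28438, the copy of mt-Nd3, at 0.17. They were followed by Nudt14, a nucleotide sugar hydrolase gene, at 0.18 and by Gm20594 at 0.23. Nudt14 had 279 ± 61 TPM in WAM and 68.4 ± 6.9 TPM in lysates, and its annotated transcripts share 0 of their 31-base words with any mitochondrial transcript on either strand. Gm20594 had 10920 ± 2041 TPM in WAM and 2628 ± 332 TPM in lysates and shares 42 such words with mt-Rnr2, the large ribosomal RNA of mitochondria. The next gene, Cep295, named after its value was seen, lay at 0.25 and shares 4 such words with the mitochondrial gene mt-Ty. The seventh, Gm28437, the copy of mt-Co3, lay at 0.45, farther from the members than Nudt14. Likeness is dominated by the difference between the fractions that all these genes share, and it describes these 12 libraries.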

How the data were processed

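Poly(A) RNA from 6 WAM and 6 lysate libraries (250 ng input, directional libraries) was analysed. The authors deposited estimated counts per gene, of which 30.1% of the non-zero values are not whole (tolerance 0.001), and a TPM list of 35498 genes. The authors' deposited enrichment table holds, as a ratio in percent, each gene's WAM over lysate TPM relative to the coefficient of its mouse. The submitters' processing notes list kallisto 0.44.0, fastp 0.12.4, R 3.5.0 and DESeq2 1.20.0 without their roles. The sources used here name no transcript build. The count table has 48042 lines, and 1 line was kept per gene ID. Another 73 per-sample columns were not used.

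Estimated counts were rounded and tested with edgeR 4.0.16 (quasi-likelihood, TMM, filterByExpr, 11181 genes with at least 99.7% of the counts; limma 3.58.1 and DESeq2 1.42.0 as alternatives, R 4.3.3), after a test on simulated data. Ratios between members were tested on log2 TPM by exact permutation in Python 3.11.15 with numpy 2.4.6. WAM and lysate of a number come from the same mouse, and their deviations correlated at 0.45 to 0.77, against at most 0.40 for other mice; the fits without the mouse block came first and the blocked ones as alternatives. No pair of libraries of a fraction agreed within sampling noise (chi-square per degree of freedom at least 11.3). The p-values without the block treat the 12 libraries as independent and leave out the pairing. Those with the block rest on the differences between WAM and lysate within each of these mice.

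The 6 members and all gene lists were chosen with earlier results of these data known. Besides the members and the complex I mRNAs, the text names the 2 most abundant genes and the gene with the largest called change of each list, Lrpprc, Slirp, Taco1, and the 5 genes with the profile nearest to the members. Genes at least 8-fold higher in WAM were named after their values were seen. Sequences and coordinates come from GENCODE M21. The mitochondrial ribosomal RNAs were not used here as measurements.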

Additional observations from a re-analysis of the deposited data

Results flagged for a closer look

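Among 56 groups of 6 values examined, 2 held a library set apart from the others, where chance alone flags about 1 group in 20. The ratio of mt-Co1 to mt-Co3 TPM in WAM was highest in mouse 2, at 2.20, with a gap to the next library of 0.632 of the whole range. The ratio of mt-Co1 to mt-Atp6 TPM in WAM was also highest in mouse 2, at 1.19, with a gap of 0.801 of the range. Mouse 2 had the lowest WAM over lysate ratio of all 6 mRNAs.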

How the results depend on the processing

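All 6 members were called higher in WAM under every alternative run. Their median log2 fold change was 2.72 on library totals and 2.26 in limma with either pseudocount, and 3.72 to 4.07 when a mouse was left out. With the replicate block it was 3.82. As deposited, 0 pairs passed with the replicate block and 0 without any 1 of the mice. A pair alone at the smallest p cannot pass over 15 pairs with 10 libraries, and mt-Co1 against mt-Atp6 kept a difference of 0.227 to 0.256. With the copies added 7 passed, 10 with the block, and 0 to 6 without a mouse. Relative to the geometric mean of the 6, 0 to 1 members passed without a mouse, 4 with the copies, 4 with the copies and the block, and 2 to 3 with the copies and without a mouse. The difference between the 6 and the 7 complex I mRNAs passed without mouse 2 (0.0984, range without a mouse 0.0984 to 0.148), with the copies (0.126, also with the block) and with sums of TPM (0.136). With the copies and without a mouse it was 0.0841 to 0.139 and passed only without mouse 5. Of neighbours in the order of levels, 0 passed without a mouse, since 5 libraries allow no p under 0.0625. With the copies, 14 lysate pair ratios lay below the smallest level SD.

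Small pair differences changed sign when a mouse was left out. Their ranges were -0.0385 to 0.105 for mt-Co2 against mt-Atp6, -0.0720 to 0.105 for mt-Co2 against mt-Atp8, -0.0792 to 0.0677 for mt-Co2 against mt-Cytb, -0.0248 to 0.114 for mt-Co3 against mt-Atp8 and -0.0319 to 0.0766 for mt-Co3 against mt-Cytb. With the copies, mt-Co2 against mt-Cytb was 0.0603, also with the block, and 0.0659, 0.0384, 0.0673, 0.0601, 0.0711 and 0.0593 without mice 1 to 6. mt-Co3 relative to the 6 was -0.0414 to 0.0334 without a mouse and -0.00716 with mt-Atp8 out of the mean.

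Medians of the nuclear lists on library totals and in limma were -0.33 and -0.66 for complex IV, -0.51 and -0.88 for complex III, -0.80 and -1.16 for complex V, -0.70 and -0.98 for assembly factors and -1.15 and -1.43 for transcription, RNA processing and translation. On library totals the log2 fold change turned negative for Ndufa4 (-0.25), Cox6c (-0.10), Uqcrq (-0.51), Uqcrh (-0.34), Uqcr11 (-0.10), Atp5g3 (-0.98), Atp5k (-0.33), Sco2 (-0.87), Cox17 (-0.44), Hsd17b10 (-0.52), Tfam (-0.22) and Slirp (-0.40). The median of all genes fell with them, from -0.08 with TMM to -1.19 on library totals and -1.22 in limma. These signs thus depend on the scale, and no cause beyond it was tested. The lowest count of a member was 2187.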
